A study of Mus musculus with 4 samples.

Results

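The mitochondrial carriers of the Slc25 gene family were followed in RNA of mouse distal colon. Members were all protein-coding genes with a symbol of the form Slc25a and a number, after Ensembl identifiers had been matched to GENCODE symbols without their version. The rule found 44 of the 22422 genes in the table, and Slc25a21, Slc25a41 and Slc25a54 were not analysed here. The study compared 2 libraries of wild-type mice with 2 libraries of Elf4fl/fl-Villin-Cre mice, in which the floxed Elf4 gene is deleted where villin-driven Cre is made, that is, in intestinal epithelium. All mice were female, 6 weeks old and had received 2% dextran sulfate sodium (DSS), which injures the colonic lining, for 5 days. The series design gives C57BL/6 for both genotypes, and the strain given for both Elf4fl/fl-Villin-Cre samples reads C57BL/8. The labels do not say whether each library is a separate animal, so p-values measure the spread between these libraries, which may be technical. Untreated colon was not analysed here.

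Slc25 proteins sit mostly in the inner mitochondrial membrane and exchange small molecules between cytosol and matrix. They move ADP and ATP, phosphate, carboxylates of the citric acid cycle, fatty acids bound to carnitine, amino acids, cofactors and iron. The absorptive cells of the colon burn fatty acids, above all butyrate made by bacteria, in their mitochondria, so these cells are rich in the organelle.

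The libraries held 16134509 and 15885028 reads in wild type, against 16023926 and 16425954 reads in Elf4fl/fl-Villin-Cre colon, recovered from the deposited normalised counts. Carriers took 0.318% and 0.347% of reads in wild type, against 0.248% and 0.268% in Elf4fl/fl-Villin-Cre colon. Elf4 itself stood at 1588 and 1938 normalised reads in wild type, against 897 and 758 in Elf4fl/fl-Villin-Cre colon. Of 8 markers of epithelium, 8 fell, with a median log2 fold change of -1.35, and their summed level was 215245 to 271489 in wild type and 65342 to 83006 in Elf4fl/fl-Villin-Cre colon. In whole tissue, fewer cells of a type and less RNA per cell cannot be told apart, and this applies to every carrier below.

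Of the 44 carriers, 11 fell and 1 rose in Elf4fl/fl-Villin-Cre colon (limma on log2(value + 1), Benjamini-Hochberg adjusted p under 0.05 over 22050 genes). That is 25% lower and 2.27% higher, beside 8.6% lower and 6.86% higher among all genes tested. The carriers that fell were Slc25a31, Slc25a10, Slc25a13, Slc25a5, Slc25a35, Slc25a20, Slc25a24, Slc25a34, Slc25a1, Slc25a39 and Slc25a11, and the one that rose was Slc25a37. The median log2 fold change over the family was -0.04, against 0.11 over all genes, and 22 members lay on each side of 0. In 16 members both Elf4fl/fl-Villin-Cre values lay below both wild-type values, in 16 they lay above, and in 12 the groups overlapped. Among all genes, 27.2% lay apart as lower and 35% as higher. At an unadjusted p under 0.05 (limma), 14 members lay lower and 8 higher, beside 3395 and 3687 of the 22050 genes tested. Counts at that cut in the classes and lists below stand beside these counts of all genes. edgeR, run on the recovered reads, called 13 lower and 2 higher of the 42 members it tested, beside 13.5% and 9.88% of all genes, and these included the 12 carriers above in the same direction. When values were rescaled to equal library totals, the median of all genes moved to 0.41, and 7 carriers fell and 8 rose (5.42% and 18.7% of all genes). The 12 carriers kept their direction under that scaling.

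**Figure D1:**
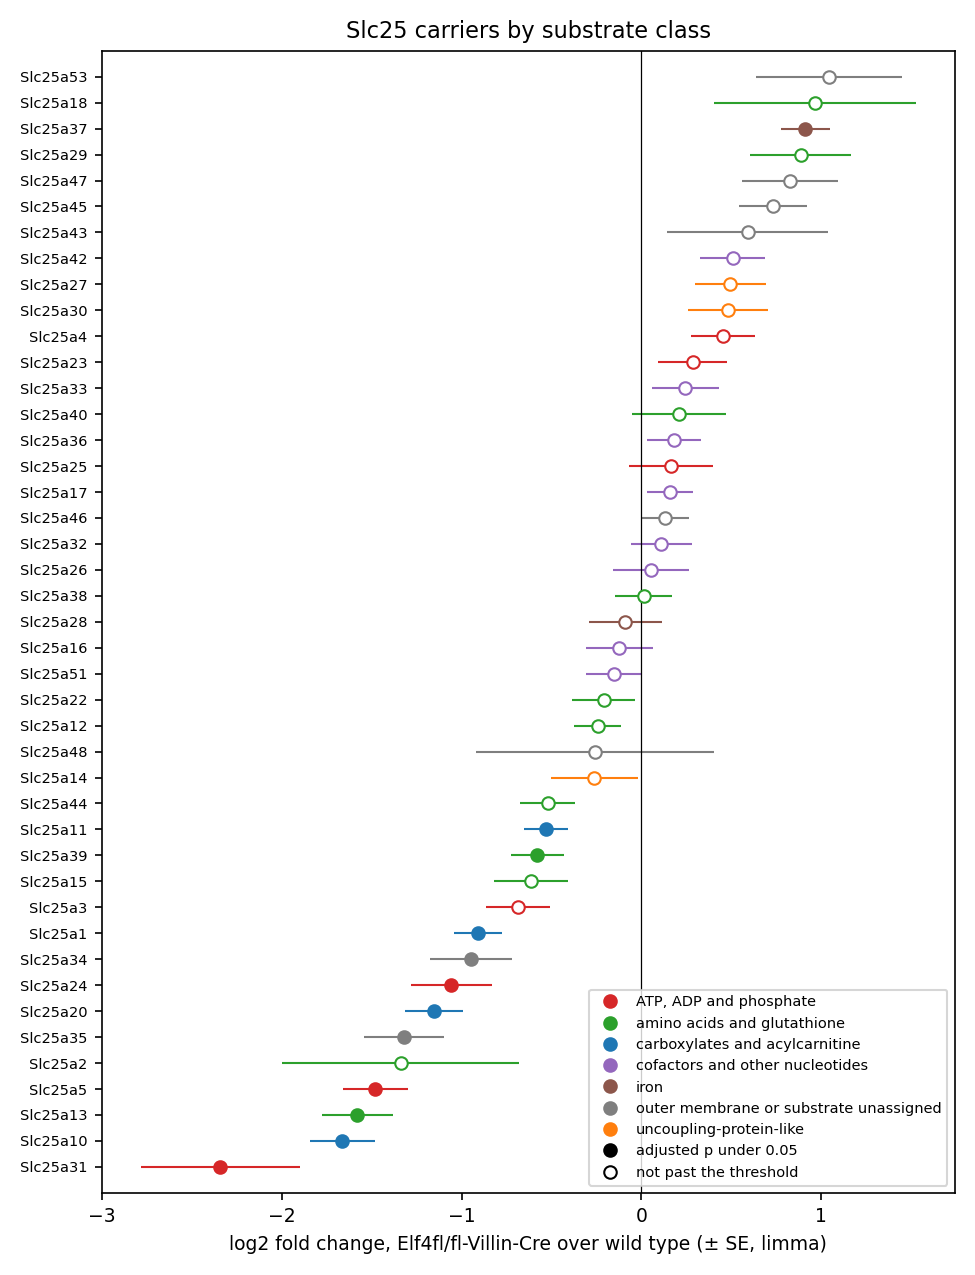
Log2 fold change of 43 of the 44 carriers, Elf4fl/fl-Villin-Cre over wild type, with the limma standard error, coloured by what the carrier moves; filled points passed the adjusted threshold. The 11 filled points left of 0 run from -2.34 (Slc25a31) to -0.53 (Slc25a11), and the 1 filled point on the right is Slc25a37 at 0.91.

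**Figure D2:**
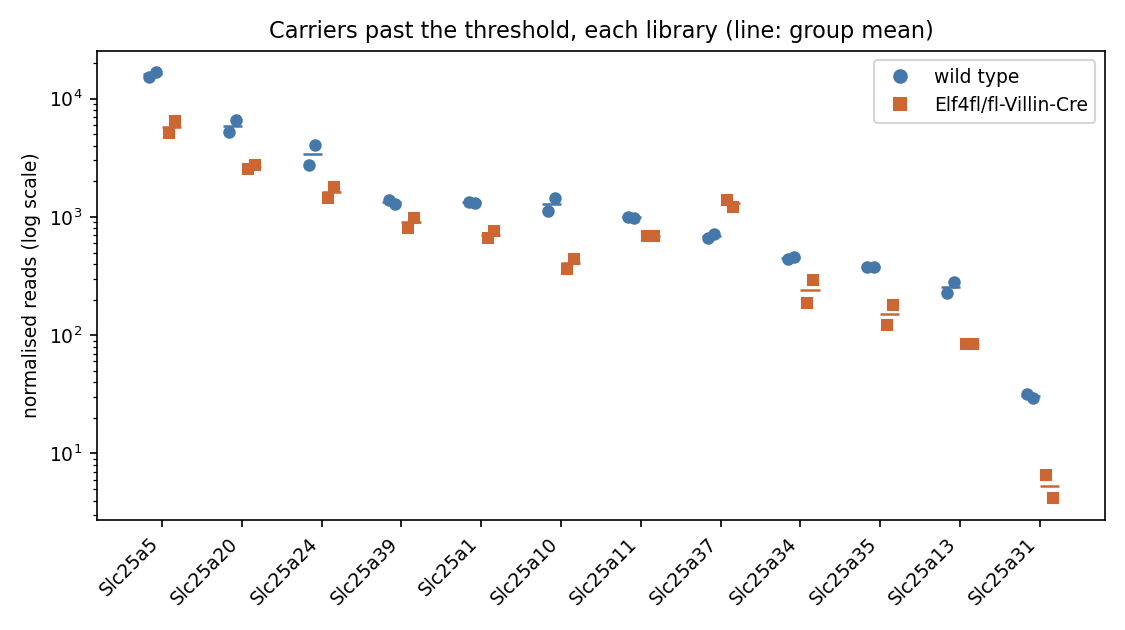
Normalised reads of the 12 carriers past the threshold in each library on a log scale, with a short line at each group mean (n = 2 libraries a group). In each carrier shown the groups do not overlap, and Slc25a37 is the carrier whose Elf4fl/fl-Villin-Cre values lie above wild type.

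Levels were set side by side per kilobase of exon. The adenine nucleotide carrier Slc25a5 led in wild type, at 9305 and 10191 normalised reads per kilobase, and alone took 29.0% and 28.9% of all carrier reads. The phosphate carrier Slc25a3 followed at 1801 and 2132 per kilobase, and the acylcarnitine carrier Slc25a20 at 1086 and 1360. Slc25a24 (795 and 1191 per kilobase) overlapped both Slc25a20 and the next in order, Slc25a4 (999 and 780 per kilobase). At the lower end Slc25a18, a glutamate carrier, had 4 and 4 reads in wild type, against 8 and 15 in Elf4fl/fl-Villin-Cre colon, and Slc25a2, an ornithine carrier, had 3 and 4 against 1 and 1. Of the 43 pairs of neighbours in the wild-type order, 19 did not overlap between libraries. The carriers that fell lay mostly at the higher levels. By mean wild-type level per kilobase, limma called lower 2 of 3 carriers at 1000 or more and 7 of 18 at 100 to 1000. It called lower 2 of 18 at 10 to 100 and 0 of 5 under 10. The share called among all genes at the same levels was not computed.

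In Elf4fl/fl-Villin-Cre colon Slc25a5 also led, at 3094 and 3938 per kilobase, with 15.8% and 17.6% of carrier reads. Slc25a3, at 1107 and 1342 per kilobase, and Slc25a4, at 1102 and 1329, then had overlapping levels. Slc25a5, Slc25a3 and Slc25a20 together made up 57.9% and 60.7% of carrier reads in wild type, against 42.6% and 45.3% in Elf4fl/fl-Villin-Cre colon. Of the 10 members highest in wild type, 9 were also among the 10 highest in Elf4fl/fl-Villin-Cre colon, and the exception was Slc25a10.

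**Figure D3:**
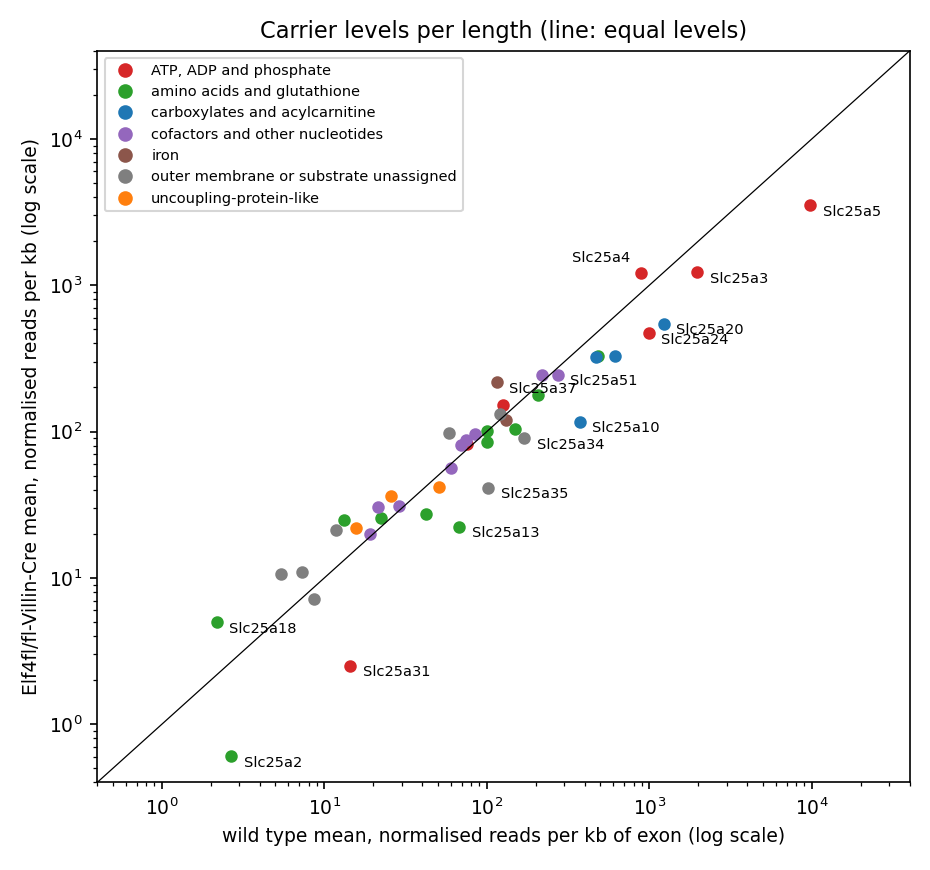
Mean normalised reads per kilobase of exon for each carrier in wild type (horizontal) and Elf4fl/fl-Villin-Cre colon (vertical), both on log scales, coloured by what the carrier moves; the line marks equal levels. Slc25a5, Slc25a20, Slc25a10, Slc25a13 and Slc25a31 lie below the line, and Slc25a37 and Slc25a4 lie above it.

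The class that moves ADP, ATP and phosphate held 7 measured members, of which 3 fell and 0 rose by limma (at an unadjusted p under 0.05, 4 lay lower and 1 higher; edgeR called 4 lower and 0 higher). Slc25a5 (ENSMUSG00000016319.3, chromosome X, 36795651 to 36798807 in mm10) encodes the adenine nucleotide translocase that exchanges cytosolic ADP for ATP made in the matrix. Its values were 15316 and 16775 normalised reads in wild type, against 5093 and 6482 in Elf4fl/fl-Villin-Cre colon. The groups lay far apart, with means of 16045 ± 1032 and 5788 ± 982 (SD, n = 2 each), so that wild type was 2.77-fold higher. On the log2 scale Slc25a5 fell by 1.48 ± 0.18 (SE; limma adjusted p = 0.0102). Processed copies of this gene exist in the mouse genome, so reads may have been shared with them.

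Slc25a4 (chromosome 8, 46206797 to 46211284) encodes the translocase known as the form of heart and skeletal muscle. It stood at 2351 and 1836 normalised reads in wild type, against 2592 and 3128 in Elf4fl/fl-Villin-Cre colon. Both Elf4fl/fl-Villin-Cre values were the higher ones, with a log2 fold change of 0.45 ± 0.18 that did not pass the test (limma adjusted p = 0.14, or 0.0257 with library totals). Of 5 skeletal muscle genes tested, 0 were called by limma or edgeR, and 0 had an unadjusted p under 0.05. The summed level of the muscle list was 358 to 369 in wild type and 239 to 405 in Elf4fl/fl-Villin-Cre colon, with Myh4 at 0 in all 4 libraries. Of 7 smooth muscle genes, 1 fell and 0 rose, with a median of -0.50. The part of muscle tissue in the Slc25a4 values was not tested.

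The promoters of this pair are printed because the 2 genes encode the same activity and their RNA lay on opposite sides of 0. Each run, from RefSeq (GRCm38.p6), covers 250 bases before to 50 bases after an annotated start. Capitals mark matches on either strand to CCGGAAG (the ETS core with flank, the family to which Elf4 belongs), AAGGTCA (known for estrogen-related receptors), GCGCATG (resembling the NRF1 motif), the E-box letters CACGTG or the GC box GGGCGG. Slc25a5 lies at chrX:36795347-36795646 on the plus strand and holds 1 match, a GC box. This window ends before the GENCODE gene start given above, and a stretch checked from its part after the RefSeq start was not found in a GENCODE transcript of the gene. Slc25a4 lies at chr8:46211013-46211312 on the minus strand and holds an ETS match and a GC box.
Slc25a5: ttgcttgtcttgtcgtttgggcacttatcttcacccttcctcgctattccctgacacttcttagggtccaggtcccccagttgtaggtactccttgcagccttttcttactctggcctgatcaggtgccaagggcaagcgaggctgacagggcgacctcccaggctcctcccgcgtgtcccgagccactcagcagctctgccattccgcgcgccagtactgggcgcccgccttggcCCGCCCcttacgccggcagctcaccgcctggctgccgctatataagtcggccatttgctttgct
Slc25a4: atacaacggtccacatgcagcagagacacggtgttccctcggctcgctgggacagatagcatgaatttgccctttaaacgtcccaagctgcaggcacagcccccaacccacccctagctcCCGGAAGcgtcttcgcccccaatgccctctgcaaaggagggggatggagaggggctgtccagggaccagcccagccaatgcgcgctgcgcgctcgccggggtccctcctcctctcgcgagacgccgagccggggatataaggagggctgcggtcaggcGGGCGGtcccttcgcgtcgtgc

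Among the other members of the class, the Slc25a31 gene, whose translocase is best known from testis, had 31.9 and 29.5 normalised reads in wild type, against 6.52 and 4.18 in Elf4fl/fl-Villin-Cre colon. Its Elf4fl/fl-Villin-Cre values rest on 8 and 5 reads. It fell by 2.34 ± 0.44 on the log2 scale (limma adjusted p = 0.0226). Slc25a24 (chromosome 3, 109123149 to 109168457) encodes a calcium-regulated carrier of ATP-Mg and phosphate. It went from 2727 and 4085 to 1438 and 1788 normalised reads. It fell by 1.06 ± 0.23 (limma adjusted p = 0.0305), and the wild-type libraries differed more from each other than the others did. Its relatives Slc25a23 and Slc25a25 had overlapping groups, with log2 fold changes of 0.29 and 0.17. The phosphate carrier Slc25a3, which also supplies copper to the matrix, stood at 9997 and 11832 in wild type, against 6143 and 7450 in Elf4fl/fl-Villin-Cre colon. Its groups did not overlap, and its log2 fold change of -0.68 ± 0.18 missed the limma threshold (adjusted p = 0.0529) and passed that of edgeR (adjusted p = 0.0414). edgeR lost Slc25a31 without wild type replicate 1 (adjusted p = 0.062) or wild type replicate 2 (adjusted p = 0.0707), and Slc25a24 without wild type replicate 2 (adjusted p = 0.0652). With library totals Slc25a24 had an adjusted p of 0.0511.

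All 4 measured carriers of carboxylates and acylcarnitine fell (4 of 4 also by edgeR), and in each the groups lay apart. The class median was -1.03. Slc25a20 (chromosome 9, 108662088 to 108684641) encodes the carrier that brings acylcarnitines into the matrix for fatty acid oxidation. It stood at 5262 and 6587 normalised reads in wild type, against 2548 and 2746 in Elf4fl/fl-Villin-Cre colon. Group means of 5924 ± 937 and 2647 ± 140 (SD, n = 2 each) differed 2.24-fold, and the gene fell by 1.15 ± 0.16 (limma adjusted p = 0.0125).

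Slc25a10 (chromosome 11, 120491840 to 120499187) encodes the dicarboxylate carrier, which exchanges malate and succinate for phosphate. It had 1130 and 1440 normalised reads in wild type, against 363 and 445 in Elf4fl/fl-Villin-Cre colon. With a 3.18-fold difference and a log2 fall of 1.66 ± 0.18, it had the smallest p of the family (limma adjusted p = 0.00942). Its exons share 228 bases with the antisense gene Gm11788. Slc25a1 (chromosome 16, 17925223 to 17928219) encodes the citrate carrier, which exports citrate for lipid synthesis. It went from 1347 and 1310 to 660 and 757 normalised reads and fell by 0.91 ± 0.13 (limma adjusted p = 0.0137). Slc25a11 (chromosome 11, 70644196 to 70647479), the oxoglutarate and malate carrier of the malate-aspartate shuttle, went from 1001 and 988 to 690 and 685. Replicates of Slc25a11 were close, and it fell by 0.53 ± 0.12 (limma adjusted p = 0.0375). It was not called with library totals (adjusted p = 0.247) or by edgeR in any of the 4 fits without 1 library (adjusted p = 0.0575, 0.0796, 0.104 and 0.0894 without wild type replicate 1, wild type replicate 2, Elf4fl/fl-Villin-Cre replicate 1 and Elf4fl/fl-Villin-Cre replicate 2). Its exons share 189 bases with Rnf167 on the other strand, and whether the counting used strand is not given in the sources used here.

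The promoters of Slc25a20 and Slc25a10 are shown as those of the carriers with the highest level and the smallest p in this class, in the same notation. Slc25a20 (chr9:108661886-108662185, plus strand) holds 3 GC boxes and 1 ETS match, and Slc25a10 (chr11:120491587-120491886, plus strand) holds 2 GC boxes.
Slc25a20: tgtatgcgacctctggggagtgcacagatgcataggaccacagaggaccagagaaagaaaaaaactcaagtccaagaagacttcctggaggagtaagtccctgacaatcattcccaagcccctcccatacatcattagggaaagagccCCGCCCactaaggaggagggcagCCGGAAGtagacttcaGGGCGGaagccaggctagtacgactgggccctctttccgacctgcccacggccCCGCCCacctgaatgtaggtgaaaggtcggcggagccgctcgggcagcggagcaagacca
Slc25a10: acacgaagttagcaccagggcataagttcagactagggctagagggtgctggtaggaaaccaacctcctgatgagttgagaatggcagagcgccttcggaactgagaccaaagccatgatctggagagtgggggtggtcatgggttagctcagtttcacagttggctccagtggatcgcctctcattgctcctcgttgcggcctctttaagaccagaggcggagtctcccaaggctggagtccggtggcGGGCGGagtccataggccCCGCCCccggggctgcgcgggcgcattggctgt

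Of 11 carriers of amino acids and glutathione, 2 fell and 0 rose by limma (at an unadjusted p under 0.05, 4 lay lower and 1 higher; edgeR called 3 lower and 0 higher of 9 tested). Slc25a13 (chromosome 6, 6041218 to 6217173) encodes citrin, an aspartate and glutamate carrier of the malate-aspartate shuttle. It stood at 229 and 283 normalised reads in wild type, against 84.7 and 84.4 in Elf4fl/fl-Villin-Cre colon. The difference was 3.03-fold, and the gene fell by 1.58 ± 0.20 (limma adjusted p = 0.0105). Its close relative Slc25a12, also known as aralar, went from 768 and 708 to 604 and 642, a log2 fold change of -0.24 ± 0.13 that did not pass (limma adjusted p = 0.262). Slc25a39 (chromosome 11, 102402985 to 102407946), which is needed for glutathione import, went from 1383 and 1290 to 812 and 983 and fell by 0.58 ± 0.15 (limma adjusted p = 0.049).

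The call of Slc25a39 stood at the threshold. It was lost with a pseudocount of 0.5 (adjusted p = 0.0516), without the filter on low values (adjusted p = 0.0517) and with library totals (adjusted p = 0.204). edgeR lost it without wild type replicate 1, wild type replicate 2 or Elf4fl/fl-Villin-Cre replicate 1 (edgeR adjusted p = 0.0812, 0.0803 and 0.17). Slc25a40, its relative, had overlapping groups and a log2 fold change of 0.21 ± 0.26. Slc25a44, a carrier of branched-chain amino acids, went from 574 and 492 to 353 and 388, with a log2 fold change of -0.52 ± 0.15 (limma adjusted p = 0.0707). Slc25a15, the main ornithine carrier, went from 203 and 273 to 149 and 157, and its log2 fold change was -0.62 ± 0.21 (limma adjusted p = 0.0976). Slc25a29, a carrier of basic amino acids, went from 37.0 and 31.6 to 69.2 and 59.4 (limma adjusted p = 0.0883). The groups of these 3 genes lay apart, and limma did not call them. edgeR called Slc25a44 lower (adjusted p = 0.042), and limma with library totals called Slc25a29 higher (adjusted p = 0.0338). Slc25a22, a glutamate carrier, and Slc25a38, a glycine carrier used in heme synthesis, had overlapping groups and log2 fold changes of -0.21 and 0.01.

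Iron is brought into mitochondria by the mitoferrins. Slc25a37 (chromosome 14, 69241848 to 69285112) encodes mitoferrin 1, known from red cell precursors. It stood at 663 and 720 normalised reads in wild type, against 1385 and 1222 in Elf4fl/fl-Villin-Cre colon. It was the carrier that rose, by 0.91 ± 0.14 on the log2 scale (limma adjusted p = 0.014), a 1.89-fold difference. Slc25a28, mitoferrin 2, stood at 580 and 398 in wild type, against 451 and 453 in Elf4fl/fl-Villin-Cre colon, and its groups overlapped. Among 7 erythroid genes 4 rose, 0 fell and the median was 2.57, while their summed level was 246 to 702 in wild type and between 2429 and 2827 in Elf4fl/fl-Villin-Cre colon. No erythroid marker was at 0 in all libraries, and Slc4a1 was at 0 in wild type replicate 1. Of 7 neutrophil genes, 6 rose and 0 fell. Ly6g, the member not called, carried most of that list's summed level (13684 to 14040 in wild type and 15005 to 16479 in Elf4fl/fl-Villin-Cre colon). Ly6g went the other way, from 12663 and 13520 normalised reads in wild type to 9105 and 10787 in Elf4fl/fl-Villin-Cre colon. Its groups lay apart, with a log2 fold change of -0.40 ± 0.17 (limma adjusted p = 0.168). Of 7 macrophage genes, 7 rose, with a median of 0.85 and a summed level of 7348 to 8617 in wild type and 13047 to 15905 in Elf4fl/fl-Villin-Cre colon. Other lists also held genes that rose: 2 of 5 fibroblast, 1 of 4 endothelial and 1 of 6 B and plasma cell genes. Their medians were 0.52, 0.67 and 0.86, and 0 of their genes fell. Of 6 T cell genes, 0 were called, with a median of 0.34. The part of the cells of any of these lists in the Slc25a37 values was not tested.

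The class of cofactors and other nucleotides held 9 members, and limma and edgeR called 0 of them (at an unadjusted p under 0.05, 1 lay higher and 0 lower). The class median was 0.16, and log2 fold changes ran from -0.15 in Slc25a51, the NAD carrier, to 0.51 in Slc25a42, a coenzyme A carrier. Slc25a42 went from 129 in both wild-type libraries to 173 and 195 in Elf4fl/fl-Villin-Cre colon, with a limma adjusted p of 0.116. Slc25a33, a pyrimidine nucleotide carrier, went from 149 and 130 to 160 and 171. Slc25a32, linked to folate and FAD, and Slc25a26, the S-adenosylmethionine carrier, had log2 fold changes of 0.11 and 0.05. Slc25a16 and Slc25a36, a pyrimidine nucleotide carrier, had overlapping groups, with log2 fold changes of -0.12 and 0.18. Slc25a17, a carrier of the peroxisome, went from 622 and 614 to 700 and 682. With library totals 2 of the 9 rose, Slc25a42 and Slc25a17 (limma adjusted p = 0.026 and 0.0463), beside 18.7% of all genes.

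The 3 carriers related to the uncoupling proteins gave 0 calls by limma and by edgeR (at an unadjusted p under 0.05, 1 lay higher and 0 lower). Slc25a27 stood at 99.8 and 102 normalised reads in wild type, against 152 and 134 in Elf4fl/fl-Villin-Cre colon, with a limma adjusted p of 0.148. With library totals it was called higher (limma adjusted p = 0.0382). Slc25a30 went from 72.0 and 70.6 to 106 and 94.5 (limma adjusted p = 0.195). Slc25a14 lies on the same chromosome as Elf4, and its gene body (chromosome X, 48623413 to 48662294) begins 160.3 kb from that of the floxed gene (48411046 to 48463132). Of the genes between them, Aifm1 fell by 0.89 (limma adjusted p = 0.0252), Zfp280c rose by 1.02 (limma adjusted p = 0.0338) and Rab33a was not called. Slc25a14 had overlapping groups, at 102 and 138 in wild type, against 91.2 and 107 in Elf4fl/fl-Villin-Cre colon, and a log2 fold change of -0.26 ± 0.24 (limma adjusted p = 0.504).

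Of 8 members that lie in the outer membrane or have no settled substrate, 2 fell and 0 rose by limma, and edgeR called 2 lower and 1 higher. Slc25a35 (chromosome 11, 68968131 to 68974365) went from 375 and 374 to 123 and 181 normalised reads and fell by 1.32 ± 0.22 (limma adjusted p = 0.0176). Slc25a34 (chromosome 4, 141618824 to 141623821) went from 444 and 460 to 189 and 290 and fell by 0.95 ± 0.23 (limma adjusted p = 0.042). In both genes the wild-type libraries were close to each other and the Elf4fl/fl-Villin-Cre libraries were spread. Slc25a45 went from 165 and 158 to 304 and 237, which missed the limma threshold (log2 fold change 0.73 ± 0.19, adjusted p = 0.0518) and passed that of edgeR (adjusted p = 0.0484) and that of limma with library totals (adjusted p = 0.0193). Slc25a47, known from liver, went from 36.0 and 34.8 to 61.9 and 65.2 (limma adjusted p = 0.0921, or 0.0322 with library totals). It starts 162 bases from Slc25a29 on the other strand of chromosome 12, and both genes had higher values in both Elf4fl/fl-Villin-Cre libraries. Slc25a46, an outer membrane protein tied to mitochondrial shape, had a log2 fold change of 0.13. The remaining 3 were low: Slc25a53 went from 58.6 and 27.4 to 93.7 and 75.2 (limma adjusted p = 0.138), Slc25a43 from 16.5 and 9.48 to 19.5 and 19.2, and Slc25a48 stood at 15.4 and 43.2 against 13.0 and 35.1, with overlapping groups.

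Slc25a35 shares 1151 exonic bases with Rangrf on the opposite strand, so without strand its reads cannot be told apart from those of that gene. edgeR lost Slc25a35 without wild type replicate 2 (adjusted p = 0.0539). It lost Slc25a34 without wild type replicate 1, wild type replicate 2 or Elf4fl/fl-Villin-Cre replicate 1 (edgeR adjusted p = 0.074, 0.106 and 0.0812), and with library totals limma lost Slc25a34 (adjusted p = 0.0753).

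Carriers that share a substrate were compared by their ratio of levels per kilobase in each library. The ratio lay apart between the groups in 9 of 10 pairs, with Slc25a33 to Slc25a36 as the exception. Among single genes 35% lay apart as higher and 27.2% as lower, and the share over other gene pairs was not computed. Most pairs hold a carrier called above, so their ratios are not separate from those calls. The ratio of Slc25a2 to Slc25a15 rests on 1 to 4 reads of Slc25a2, and that of Slc25a18 to Slc25a22 on 4 to 15 reads of Slc25a18. With 2 libraries against 2 an exact permutation test cannot give a two-sided p below 0.33, so ratios are described without a test, and each gene's own values are given above. Slc25a5 exceeded Slc25a4 by 9.31 and 13.1 times in wild type, against 2.81 and 2.96 times in Elf4fl/fl-Villin-Cre colon. Slc25a12 exceeded Slc25a13 by 1.73 and 1.29 times in wild type, against 3.69 and 3.93 times in Elf4fl/fl-Villin-Cre colon. The mitoferrin ratio, Slc25a37 over Slc25a28, was 0.711 and 1.13 in wild type, against 1.91 and 1.68 in Elf4fl/fl-Villin-Cre colon. Slc25a24 exceeded Slc25a23 by 5.47 and 11.3 times in wild type, against 2.98 and 3.22 times in Elf4fl/fl-Villin-Cre colon. The ratio of Slc25a10 to Slc25a11 went from 0.692 and 0.894 to 0.323 and 0.399. A ratio within a library does not depend on how libraries were scaled.

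**Figure D4:**
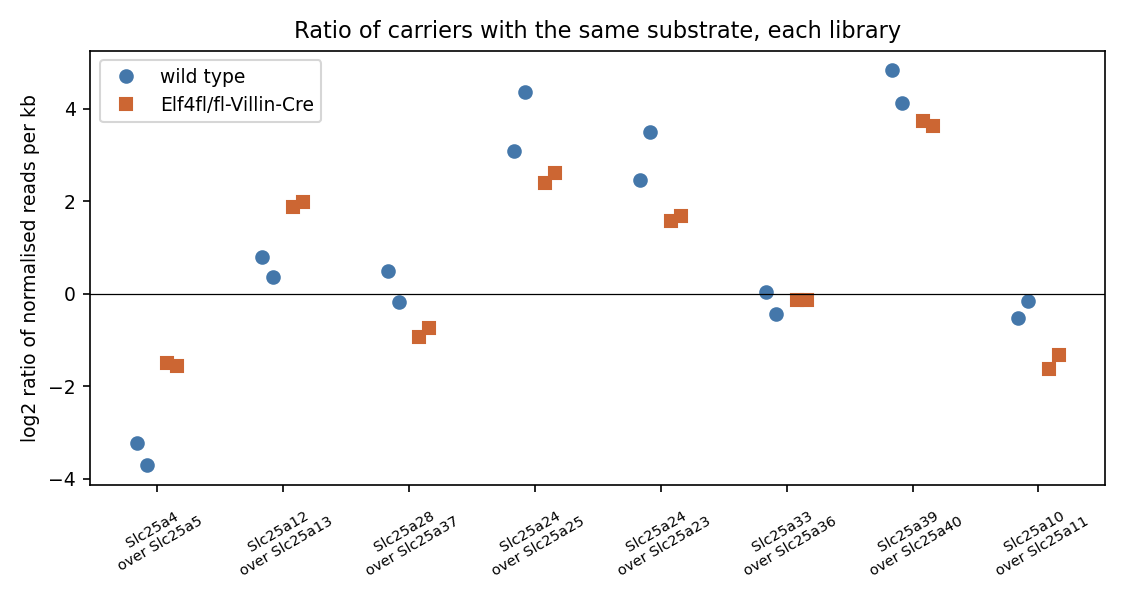
Log2 ratio of normalised reads per kilobase for 8 pairs of carriers with the same substrate, each point 1 library. The Elf4fl/fl-Villin-Cre squares lie apart from the wild-type circles in 7 of the 8 pairs shown, with the widest shift in Slc25a4 over Slc25a5 (1.94 log2 units).

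Enzymes and channels that work beside the carriers were taken from 23 lists, chosen with earlier results of these data known. Among all genes tested, limma called 8.6% lower and 6.86% higher. Of 19 respiratory chain genes, 18 fell and 0 rose, with a median of -0.88, and of 14 ATP synthase genes, 10 fell and 0 rose, with a median of -0.74. Cox5a, of cytochrome c oxidase, went from 2969 and 3329 to 1133 and 1314 normalised reads. The porins Vdac1, Vdac2 and Vdac3, the outer membrane route for ADP and ATP, fell in 3 of 3 cases. edgeR lost Vdac2 without wild type replicate 2 (adjusted p = 0.056), and lost Vdac1 (adjusted p = 0.129 and 0.147) and Vdac3 (adjusted p = 0.119 and 0.143) without wild type replicate 2 or Elf4fl/fl-Villin-Cre replicate 1. Of 15 genes of carnitine use and fatty acid oxidation, the pathway that Slc25a20 feeds, 11 fell and 0 rose, with a median of -0.75. Hadh went from 1529 and 1971 to 515 and 620, and Acads, which oxidises butyrate, from 1075 and 948 to 352 and 380 (limma log2 falls of 1.62 and 1.46).

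Genes that make or use the carboxylates fell in part. Of 13 citric acid cycle genes, 7 fell and 0 rose, with a median of -0.82, and Suclg2, of succinyl-CoA ligase, went from 1485 and 1938 to 476 and 617. Of 5 genes that use citrate in the cytosol, 4 fell, among them Acly, which splits exported citrate, from 2848 and 3553 to 1385 and 1536. Of 6 genes of the malate-aspartate and glycerol phosphate shuttles, 4 fell, with a median of -0.84, and Mdh1 went from 3763 and 3624 to 1900 and 2157. Esrra, a nuclear receptor that drives mitochondrial genes, went from 3357 and 3294 to 1275 and 1451. It was 1 of 3 among 8 regulators of mitochondrial biogenesis that fell, with Ppargc1a and Ppargc1b, both lost in edgeR when wild type replicate 2 was left out (adjusted p = 0.0911 and 0.127).

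The machinery that inserts carriers into the inner membrane gave 0 calls of 13 by limma (at an unadjusted p under 0.05, 1 lay higher and 3 lower; edgeR called 1, Timm13, lower), with a median of -0.01. Of 8 genes of ornithine and arginine metabolism, 2 rose and 0 fell. Arg2, the mitochondrial arginase, whose product ornithine is carried by Slc25a15, went from 23.7 and 24.2 to 244 and 320 normalised reads (log2 rise of 3.49 ± 0.24). Of 4 tested genes with the carrier fold but another symbol, Ucp2 fell, from 4323 and 4545 to 2721 and 2830, and edgeR lost it without wild type replicate 2 or Elf4fl/fl-Villin-Cre replicate 1 (edgeR adjusted p = 0.0719 and 0.08). In the pyruvate carrier, Mpc2 fell, from 842 and 890 to 485 and 591, while Mpc1 stood at 440 and 491 against 497 and 469, and edgeR lost Mpc2 without wild type replicate 2 or Elf4fl/fl-Villin-Cre replicate 1 (edgeR adjusted p = 0.0831 and 0.102). The 7 genes of glutamine and proline metabolism gave 0 calls by limma and edgeR and 0 at an unadjusted p under 0.05. Of 5 sideroflexins, some of which carry serine, limma and edgeR called 0 (at an unadjusted p under 0.05, 2 lay higher and 0 lower). Beside these lists, 8 of 8 epithelial markers fell (median -1.35) and 6 of 8 absorptive colonocyte markers fell (median -1.70). Of 7 goblet cell markers, limma called 2 lower and 0 higher, and edgeR called 3 lower. All 7 had a negative log2 fold change (median -0.87). Their summed level was 771072 to 935730 in wild type and 233666 to 416399 in Elf4fl/fl-Villin-Cre colon. The part of any of these markers' cells in the lists was not tested.

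The other 9 lists were as follows, beside 8.6% lower and 6.86% higher among all genes tested by limma. Of 6 calcium uniporter genes 3 fell and 1 rose, of 4 genes of ketone body synthesis 2 fell and 1 rose, and of 4 thiamine genes 2 fell and 0 rose. Among 13 genes of heme and iron-sulfur synthesis 2 fell and 0 rose, and among 8 of coenzyme A and NAD synthesis 2 fell and 0 rose. A fall of 1 gene and a rise of 0 were found in each of branched-chain amino acid breakdown (9 genes), mitochondrial DNA and nucleotides (8), folate in mitochondria (6) and fission and fusion (6).

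With library totals several of these counts moved. Over all genes that fit called 5.42% lower and 18.7% higher. Respiratory chain genes that fell numbered 11, ATP synthase genes 6, genes of fatty acid oxidation 7 and porins 1, and neither Ucp2 nor Mpc2 was called. Genes of ornithine and arginine metabolism that rose numbered 6, and 2 genes of carrier insertion, 2 sideroflexins and 1 gene of glutamine and proline metabolism rose. Of the other 9 lists, heme and iron-sulfur synthesis had 0 falls and 2 rises, and branched-chain amino acid breakdown 0 and 3. Folate in mitochondria had 1 fall and 2 rises, as had mitochondrial DNA and nucleotides. Fission and fusion had 0 and 0, the calcium uniporter 2 and 2, and coenzyme A and NAD synthesis 1 and 0. Ketone body synthesis had 1 fall and 1 rise, and thiamine 2 and 0. The counts of falls for the citric acid cycle (7), cytosolic citrate use (4), the shuttles (4) and biogenesis regulators (3) were the same as before. So were those of epithelial (8) and colonocyte (6) markers. Among the biogenesis regulators 1 gene also rose with library totals.

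**Figure D5:**
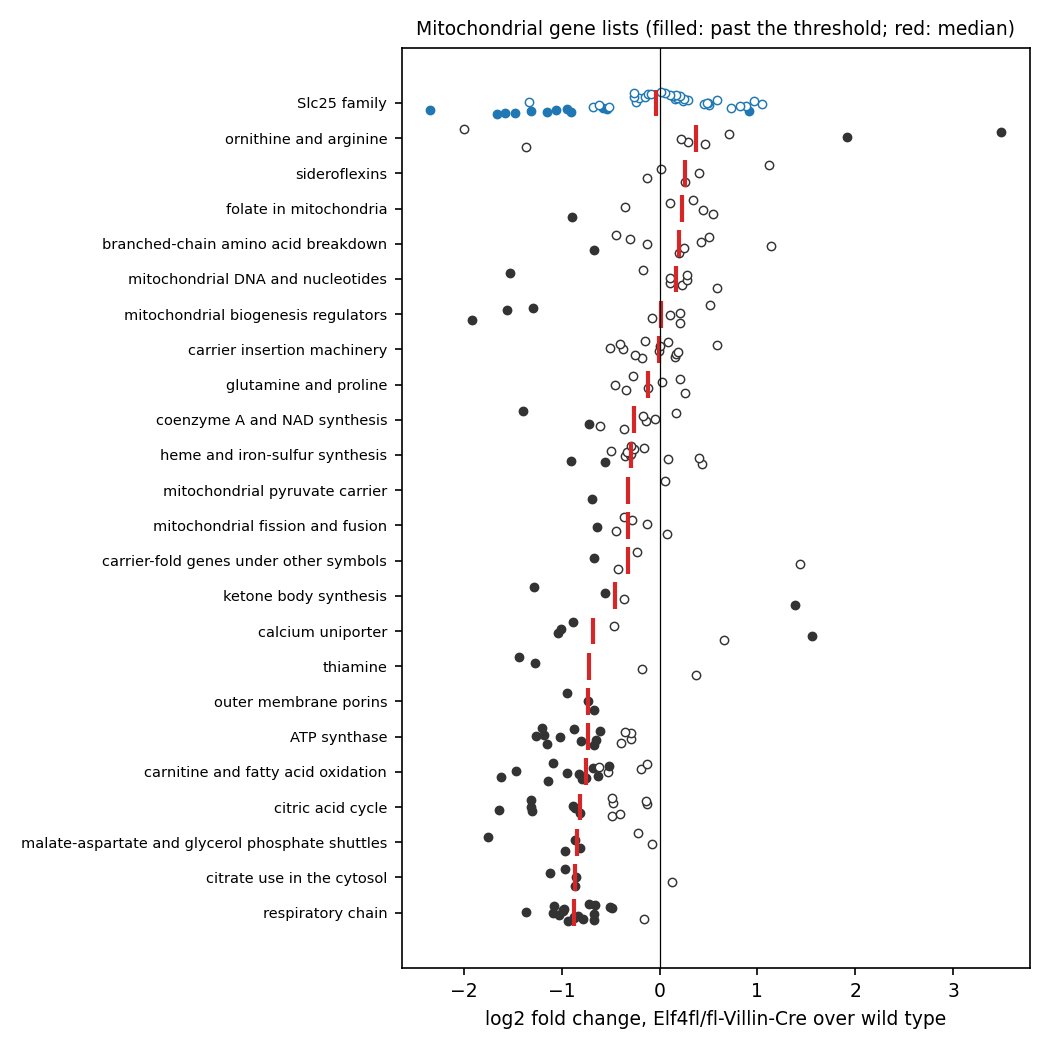
Log2 fold change of each gene in the 23 lists of enzymes, channels and regulators, and of the 44 carriers in blue at the top; filled points passed the limma threshold and red bars mark medians. The respiratory chain (median -0.88) lies wholly left of 0, whereas the carriers spread over both sides.

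The carriers with the largest called changes were set beside all genes tested by the distance between their log2 values, each centred on its own mean over the 4 libraries. Of the 20 genes closest to each carrier, those named are from the 3 with the highest mean level. For Slc25a10 these were Myh14, at a distance of 0.0581 log2 units, Iqgap2 and Adgrg7. Myh14, a non-muscle myosin, went from 14658 and 18793 to 4820 and 6087 normalised reads. For Slc25a13 they included Sprr2a1 and Clca4b, at distances of 0.0998 and 0.118. For Slc25a31 they included St3gal4 and Sectm1a, at distances of 0.391 and 0.409. The points in these distances are 4 libraries that share group differences in many genes.

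Promoters of 34 carriers were found in the RefSeq table, 43 in all, of which 10 genes were carriers that fell. CCGGAAG on either strand was present in 6 of the 34 (17.6%), beside 9.93% of the 27025 genes in that table. These 6 were Slc25a17, Slc25a20, Slc25a25, Slc25a3, Slc25a38 and Slc25a4, of which Slc25a20 was called. GGGCGG was present in 30 of the 34 (88.2%), beside 38.2% of all genes, and the median GC content was 59.7% in carrier promoters and 52.7% in all. The E-box letters CACGTG were found in 7 carriers (20.6%) beside 8.09% of all genes, and among the carriers that fell these were Slc25a1, Slc25a13 and Slc25a31. AAGGTCA was found in 1 carrier, Slc25a34 (2.94%), beside 5.38% of all genes. The NRF1-like letters GCGCATG were also found in 1, Slc25a31, beside 4.41% of all genes. These are matches of letters in a window and are given as a description.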

How the data were processed

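DSS-treated distal colon was sequenced from mice of 2 genotypes, wild type and Elf4fl/fl-Villin-Cre, with 2 libraries each, with RNA extracted by Trizol per the labels. The deposited table gives a normalised signal per gene and library, made by the authors. Each value is a whole multiple of 1 step per library (100% of values, tolerance 0.01), so it is a read count divided by a library factor, without gene length. Per the submitters' processing notes the genome build was mm10. The sources used here do not name the aligner, counter, strandedness or scaling tool. GENCODE release 21 matched 22376 of 22422 identifiers (99.8%).

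A mean value of at least 1 over the libraries was required, and 22050 genes passed. limma (3.58.1, R 4.3.3) was fitted to log2(value + 1) with a variance trend and genotype as the only term (2 residual and 4.06 prior degrees of freedom), two-sided, with Benjamini-Hochberg adjustment at 0.05. Fold changes on this scale understate changes of low genes. edgeR (4.0.16) with TMM and DESeq2 (1.42.0) on recovered reads, other pseudocounts, filters and scalings, a replicate block and leaving out each library were alternatives, and edgeR without each library was added after seeing the data. The code was tested on simulated data. Levels per kilobase used the union of exons. Members, lists and tests were chosen with earlier results of these data known. Values per library are given for all carriers past the threshold and the next 6 by p, and for up to 3 genes of a list past the threshold by smallest p, or 1 where none passed. Other carriers and Mpc1, Ly6g, Slc4a1 and Myh4 were named after their values were seen. The values of 1 carrier and 2 other genes are not reported here by name; counts and medians include them.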

Additional observations from a re-analysis of the deposited data

How the results depend on the processing

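The 12 called carriers kept their direction in all 18 other fits. With library totals 8 carriers were called higher and 7 lower (all genes 4114 and 1194), and the family median moved from -0.0374 to 0.278; it was -0.1267 with median scaling and -0.1075 in DESeq2. Carriers called higher numbered 2 with a mean value of at least 10, in edgeR and with the replicate block. Leaving out 1 library, limma called 0 carriers and 0 genes (smallest adjusted p = 0.1073; 11 to 18 carriers at an unadjusted p under 0.05), with the lone sample assumed to vary like the others. edgeR then called 5 carriers lower without wild type replicate 2, 7 without wild type replicate 1, and 8 when Elf4fl/fl-Villin-Cre replicate 1 was left out. Without Elf4fl/fl-Villin-Cre replicate 2 it called 11 lower, and 1 to 2 were called higher in these fits. Over all genes it called 809 to 2191 lower and 476 to 1563 higher (844 higher without Elf4fl/fl-Villin-Cre replicate 1). The family median was -0.0922 to 0.0616 in limma and -0.1418 to 0.0193 in edgeR. In these edgeR fits 6 of the 12 carriers were called each time.

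With library totals the log2 fold change turned to 0.0731 in Slc25a12, 0.1059 in Slc25a22, 0.0525 in Slc25a14, 0.1627 in Slc25a51, 0.1937 in Slc25a16, 0.2273 in Slc25a28 and 0.0416 in Slc25a48, none called. Slc25a26 turned to -0.0345 with median scaling and -0.0071 in DESeq2. Slc25a38 turned to -0.0102 with TMM scaling, -0.0757 with median scaling, -0.0115 in edgeR and -0.0435 in DESeq2. The cause was not tested.

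Leaving out 1 library turned the sign of 9 uncalled carriers and 1 ratio. Slc25a36 ran from 0.0411 to 0.3247 in limma and -0.0032 to 0.3013 in edgeR. Slc25a22 ran from -0.424 to 0.0038 in limma and -0.4457 to -0.0382 in edgeR. Slc25a40 ran from -0.0965 to 0.5129 in limma and -0.131 to 0.502 in edgeR (and -0.0518 without Elf4fl/fl-Villin-Cre replicate 2). Slc25a25 ran from -0.1729 to 0.5037 in limma and -0.1966 to 0.4604 in edgeR. Slc25a16 ran from -0.3091 to 0.0663 in limma and -0.3495 to 0.0193 in edgeR. Slc25a28 ran from -0.3592 to 0.1826 in limma and -0.3839 to 0.1383 in edgeR. Slc25a48 ran from -0.9735 to 0.454 in limma and -1.201 to 0.6069 in edgeR (and 0.2131 without Elf4fl/fl-Villin-Cre replicate 1). Slc25a26 ran from -0.0194 to 0.1276 in limma and -0.0631 to 0.1059 in edgeR (and -0.0361 without Elf4fl/fl-Villin-Cre replicate 1). Slc25a38 ran from -0.0929 to 0.1198 in limma and -0.1307 to 0.0747 in edgeR (-0.0373 without wild type replicate 1). The log2 ratio of Slc25a33 to Slc25a36 ran from -0.1797 to 0.3072.

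Same-numbered libraries are not said to share an origin, and their deviations correlated at 0.198 across genes with a mean of at least 10. With the replicate block 12 carriers were called lower and 2 higher. Of the 10 carriers highest per kilobase in wild type, 9 stayed among the 10 highest under each of the other 2 length definitions. Low depth limits Slc25a2 and Slc25a18, with 15 reads or fewer in each library.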
